A study of Neurospora crassa OR74A with 26 samples.

Results

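Of the catalase and superoxide dismutase genes of the filamentous fungus Neurospora crassa, 5 were taken by locus tag: cat-1 (NCU08791), cat-2 (NCU05770), cat-3 (NCU00355), sod-1 (NCU02133) and sod-2 (NCU01213). These are 5 of the 9733 genes measured, and all 5 were detected in every library. Superoxide dismutases turn superoxide into hydrogen peroxide and oxygen, and catalases break hydrogen peroxide down to water and oxygen. In N. crassa, CAT-1 is a large-subunit catalase known for its abundance in conidia, the asexual spores. CAT-2 is a bifunctional catalase-peroxidase, and CAT-3 is a large-subunit catalase of growing hyphae. SOD-1 is the copper and zinc enzyme of the cytosol, and SOD-2 is a manganese enzyme of mitochondria.

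Cultures of all groups were started from conidia, grown for 16 h in sucrose medium, washed and moved to new medium. The deletion strains have the open reading frame of clr-1 (NCU07705, called cdr1 in the sample titles) or clr-2 (NCU08042, called cdr2) replaced by a hygromycin resistance cassette. Both genes encode transcription factors required for the expression of cellulase genes. Each deletion strain was sampled at 1 h and 4 h on Avicel, a crystalline cellulose, and at 1 h and 4 h on sucrose, with 1 library per group. Wild type on Avicel had 1 library at 30 min, 3 at 1 h, 1 at 2 h and 3 at 4 h. Wild type without a carbon source had 1 library at 1 h and 3 at 4 h. Wild type on sucrose had 3 libraries at 1 h and 3 at 4 h, which makes 26 libraries in all. The triplicates are biological replicates by the study's own design text. A library is mRNA from a whole culture, so fewer cells of a type and less RNA per cell cannot be told apart.

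All levels are the deposited FPKM, fragments per kilobase of transcript scaled to a library size, which allows levels of different genes to be compared per length. A log2 change is the difference between group means of log2(FPKM + 1). Tests were two-sided in limma, with p adjusted over the 8629 genes that averaged 1 FPKM or more, and a change was called, and written as a rise or a fall, below an adjusted p of 0.05. Between 11.8 M and 110.6 M reads were recovered per library (M, mega). The library size implied by the FPKM was smaller, and not a fixed share of these reads. For replicate 3 at 4 h it was 4.19 M against 38.8 M reads on sucrose and 7.09 M against 44.0 M on Avicel. Without carbon it was 20.6 M against 110.6 M. Changes between media therefore depend on the deposited scaling. The Avicel and sucrose triplicates mix read lengths: replicate 1 has reads of 36 bases at 1 h and 40 bases at 4 h, and replicates 2 and 3 have reads of 50 bases. The Avicel libraries of 30 min and 2 h have reads of 36 bases, the no-carbon libraries 51 bases and the deletion libraries 50 bases. Values are therefore also given within a read length where the classes differ. In the deletion strains the deleted gene was at 6.13 to 23.1 FPKM for clr-1, against 22.3 to 950.3 FPKM in wild type, and listed at 0 in all 4 libraries for clr-2, against 1.52 to 1521 FPKM in wild type. Within each medium and time, the library of the clr-1 deletion was below all wild-type libraries for clr-1.

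By the coordinates of the deposited files, 1-based and on an assembly whose name is not given in the sources used here, sod-1 lies on supercontig 1 at 1135235 to 1136394, cat-3 on supercontig 3 at 3561619 to 3564239, and cat-1 on supercontig 3 at 5111785 to 5114534. The sod-2 gene lies on supercontig 5 at 3262713 to 3264253, and cat-2 on supercontig 7 at 487350 to 490318. Each has 1 annotated transcript, of 715 bases for sod-1, 2493 for cat-3, 2689 for cat-1, 1330 for sod-2 and 2772 for cat-2. For each of them, 0 other transcripts overlap these coordinates. The authors' list of 212 clustered genes holds 0 of the 5.

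The 3 catalase genes covered wide ranges across the 16 groups, and the superoxide dismutase genes narrow ones. The highest group mean was 133 times the lowest for cat-2, 57.3 times for cat-3 and 53.2 times for cat-1, but 3.78 times for sod-1 and 2.95 times for sod-2. The sod-1 transcript stayed between the 97.8th and the 99.7th percentile of all genes in each library. The percentile ran between 29.4 and 98.9 for cat-2, between 30.8 and 97.3 for cat-1, between 33.1 and 95.3 for cat-3, and between 72.0 and 91.0 for sod-2.

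**Figure D1:**
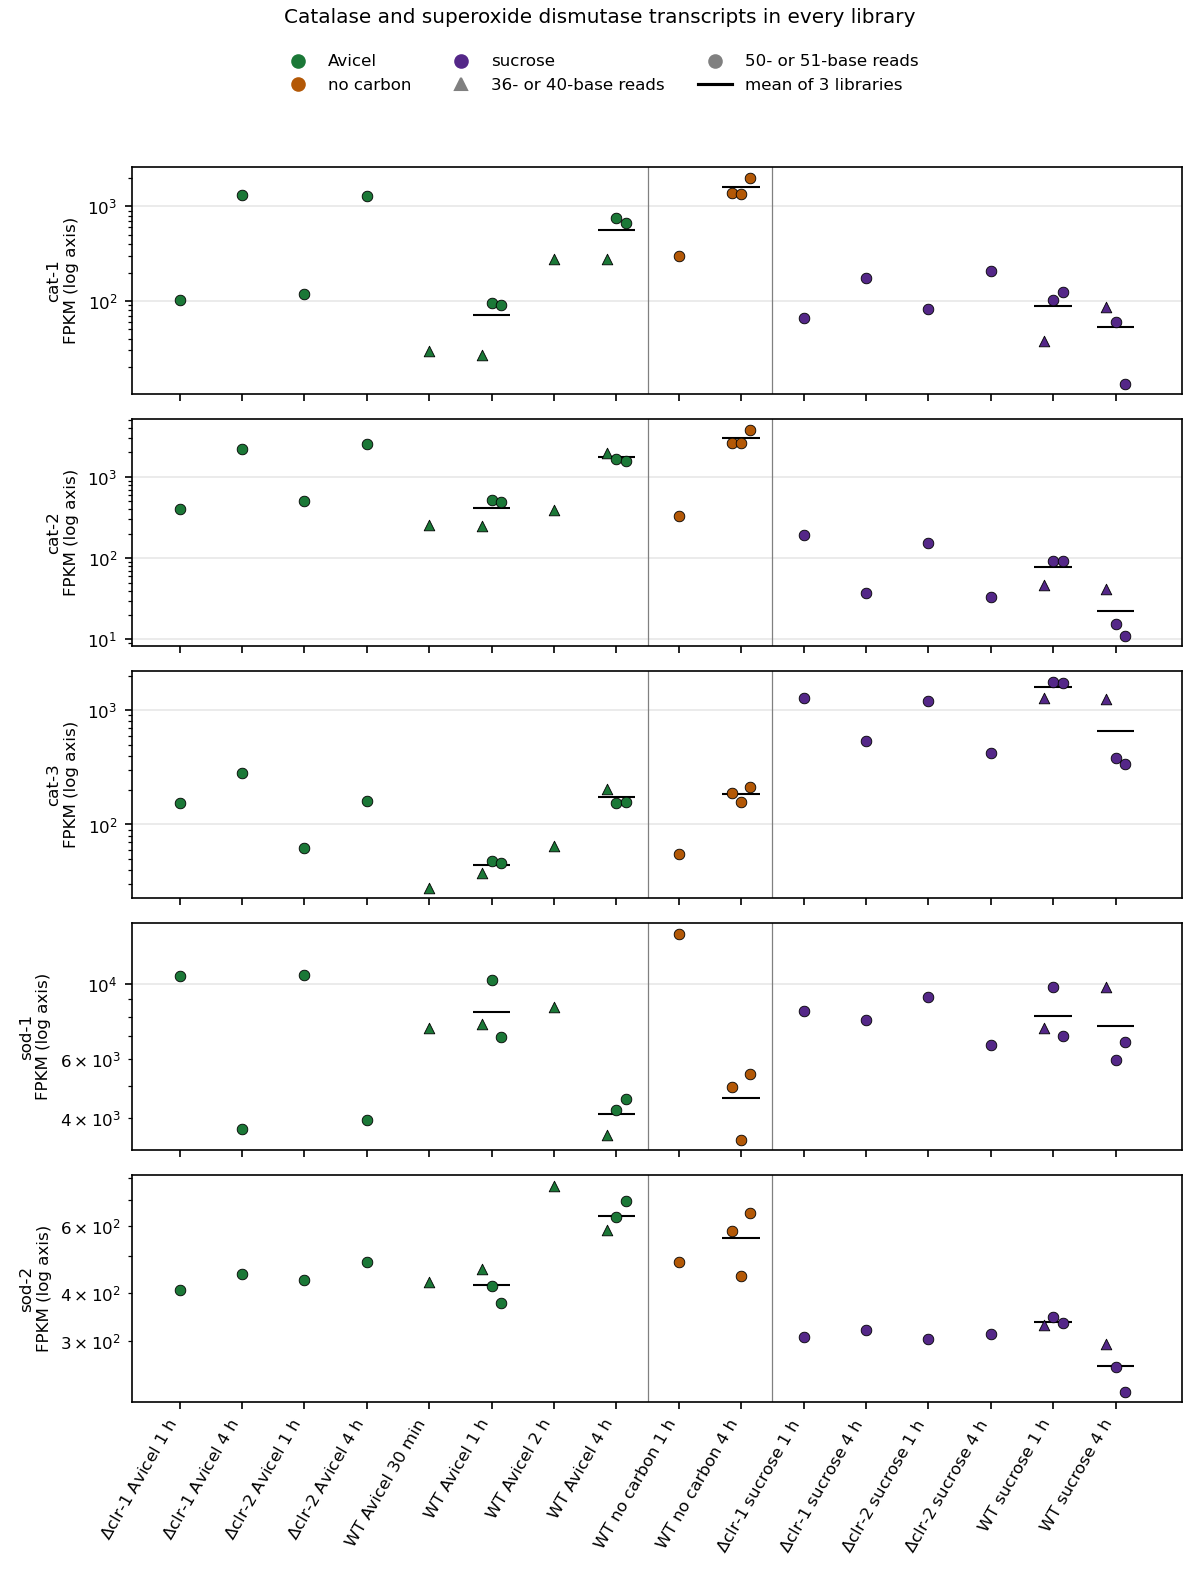
FPKM on a log axis for each of the 5 genes (rows) in each of the 26 libraries by group; triangles are libraries with 36- or 40-base reads, circles are the others, and black bars are means of 3 libraries. The cat-1 and cat-2 points are highest without carbon at 4 h, the cat-3 points are highest on sucrose, and sod-1 and sod-2 span much less.

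At 4 h, by the deposited FPKM, wild-type cultures on Avicel had far more cat-1 and cat-2 transcript than cultures on sucrose, more sod-2, and less cat-3 and sod-1. The 5 genes moved in both directions: 3 rose and 2 fell. All 5 passed the test, in a comparison in which 58.4% of all tested genes did (34.3% higher and 24.2% lower on Avicel), so a call by itself sets these genes apart little. The median size of the log2 change, regardless of sign, was 1.67 over the 5 genes and 1.05 over all tested genes.

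The conidial catalase gene cat-1 was at 275.7, 761.1 and 669.3 FPKM on Avicel at 4 h in replicates 1, 2 and 3, against 85.7, 59.3 and 13.4 FPKM on sucrose. Every Avicel library was above every sucrose library, and the sucrose libraries were spread widely among themselves. The log2 change was 3.63 (SE 0.68, adjusted p = 0.000423). It was 1.67 between the 40-base libraries and 4.60 between the 50-base libraries. Without sucrose replicate 3, the lowest library, it was 2.85 and still called (adjusted p = 0.0018).

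The catalase-peroxidase gene cat-2 was at 1950, 1682 and 1587 FPKM on Avicel at 4 h, against 41.3, 15.7 and 11.1 FPKM on sucrose. The groups were far apart, and this was the largest change among the 5 genes, with a log2 change of 6.41 (SE 0.43, adjusted p = 4.35e-08). The difference was 5.53 between the 40-base libraries and 6.84 between the 50-base libraries.

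The hyphal catalase gene cat-3 went the other way, with 205.6, 154.4 and 157.9 FPKM on Avicel at 4 h, against 1260, 381.7 and 337.2 FPKM on sucrose. The groups did not overlap, but the sucrose library with 40-base reads stood far above the other sucrose libraries. The log2 change was -1.67 (SE 0.38, adjusted p = 0.00193), and without the short-read replicates it was -1.20 and still called. Without sucrose replicate 1 alone it was -1.06, also called. Between the 40-base libraries it was -2.61.

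The cytosolic dismutase gene sod-1 was at 3578, 4240 and 4559 FPKM on Avicel at 4 h, against 9773, 5961 and 6730 FPKM on sucrose. All Avicel libraries were lower by FPKM, but as shares of the recovered reads the groups overlapped. The sod-1 reads were 3200 of 11.8 M, 17104 of 46.5 M and 17217 of 44.0 M on Avicel. On sucrose they were 9185 of 12 M, 14169 of 43 M and 14974 of 38.8 M. The log2 change was -0.83 (SE 0.27, adjusted p = 0.0172), and this call rested on sucrose replicate 1: without that library the change was -0.63 (adjusted p = 0.0677). It was -1.45 between the 40-base libraries and -0.53 between the 50-base libraries.

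The mitochondrial dismutase gene sod-2 was at 584.7, 633.0 and 693.7 FPKM on Avicel at 4 h, against 295.5, 257.8 and 221.9 FPKM on sucrose. The groups did not overlap and each was tight. The log2 change was 1.30 (SE 0.17, adjusted p = 1.94e-05). It kept its direction in both read-length classes, with 0.98 and 1.47.

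The authors' deposited tables for the same comparison, made from counts, list a DESeq fold of Avicel over sucrose of 68.9 for cat-2, 9.07 for cat-1, 2.19 for sod-2 and 0.226 for cat-3, with adjusted p values of 3.67e-46, 1.4e-22, 0.013 and 0.0172. In the authors' deposited table sod-1 has a fold of 0.489 with an adjusted p of 0.331 and an edgeR FDR of 0.316, so it was not called there.

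**Figure D2:**
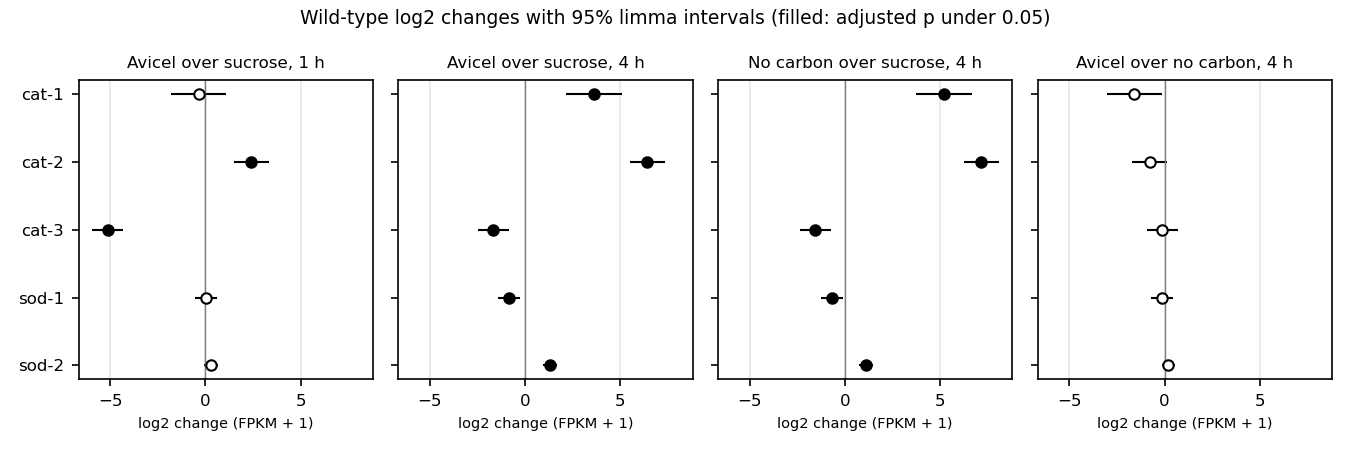
Log2 change of FPKM + 1 (horizontal axis) for the 5 genes in 4 wild-type comparisons, with 95% limma intervals; filled points have an adjusted p under 0.05. At 4 h all 5 points are filled against sucrose, on Avicel and without carbon, and none is filled for Avicel over no carbon; at 1 h only cat-2 and cat-3 are filled.

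Cultures without any carbon source had lost sucrose but received no Avicel. Their libraries have 51-base reads and the sucrose libraries of 4 h have 40- or 50-base reads, so read length differs with the medium here too. At 4 h the no-carbon cultures differed from sucrose in the same directions for all 5 genes, and all 5 were called (3 higher, 2 lower), against a background of 63.2% of tested genes, 39.6% higher and 23.6% lower. The comparison shares its sucrose libraries with the one above, so their likeness is no separate evidence. The cat-1 transcript was at 1397, 1343 and 2016 FPKM without carbon, all above the sucrose libraries given above (log2 change 5.21, SE 0.68, adjusted p = 1.73e-05). Without sucrose replicate 3 the cat-1 change was 4.43 and still called. The cat-2 transcript was at 2588, 2627 and 3828 FPKM without carbon (log2 change 7.18, SE 0.43, adjusted p = 2.23e-08), the highest levels of any catalase gene in the series. The groups did not overlap for either gene.

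The cat-3 transcript was at 188.6, 156.6 and 212.7 FPKM without carbon at 4 h, each below the lowest sucrose library, with a log2 change of -1.56 (SE 0.38, adjusted p = 0.0028). Without sucrose replicate 1, the high library, the change was -0.96 and still called. As shares of the recovered reads the cat-3 groups overlapped, with 10208 of 110.6 M in no-carbon replicate 3 and 2894 of 38.8 M in sucrose replicate 3. The sod-1 transcript was at 4964, 3458 and 5398 FPKM without carbon, below all sucrose libraries, with a log2 change of -0.69 (SE 0.27, adjusted p = 0.0383). As shares of the recovered reads the sod-1 groups overlapped. The reads were 21405 of 41.2 M, 42080 of 108.3 M and 68598 of 110.6 M without carbon. On sucrose they were 9185 of 12 M, 14169 of 43 M and 14974 of 38.8 M. The sod-1 call was lost in 7 of 25 alternative settings, which include leaving out sucrose replicate 1 (-0.48, adjusted p = 0.142), sucrose replicate 3 (-0.75, adjusted p = 0.0575), no-carbon replicate 1 (-0.76, adjusted p = 0.0521) or no-carbon replicate 2 (-0.50, adjusted p = 0.157). With the replicate number as a block its adjusted p was 0.0568. The sod-2 transcript was at 582.4, 443.8 and 645.9 FPKM without carbon, above all sucrose libraries (log2 change 1.10, SE 0.17, adjusted p = 8.11e-05).

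Avicel and no carbon were then set against each other at 4 h. None of the 5 genes was called, in a comparison in which 5.39% of tested genes were; without adjustment 1522 of the 8629 genes had a p under 0.05, among them cat-1. The cat-1 libraries on Avicel, at 275.7 to 761.1 FPKM, were all below those without carbon, at 1343 to 2016 FPKM, with a log2 change of -1.58 (95% interval -3.04 to -0.12, unadjusted p = 0.0357, adjusted p = 0.245). The cat-2 libraries on Avicel, at 1587 to 1950 FPKM, were also all below those without carbon, at 2588 to 3828 FPKM (log2 change -0.77, adjusted p = 0.38). Without Avicel 4 h replicate 1 alone the cat-2 change was -0.86 and not called (adjusted p = 0.497). With the short-read replicates of all 4 triplicates left out it was called (adjusted p = 0.0174), where 13.3% of all tested genes were. All no-carbon libraries have 51-base reads, so read length and medium cannot be told apart here.

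For the other 3 genes Avicel and no carbon overlapped at 4 h. The log2 changes were -0.11 for cat-3 (adjusted p = 0.926), -0.14 for sod-1 (adjusted p = 0.848) and 0.21 for sod-2 (adjusted p = 0.575). In the authors' deposited tables for Avicel over no carbon, edgeR lists a log2 change of -1.81 with an FDR of 0.00195 for cat-1 and -1.18 with an FDR of 0.0551 for cat-2. The authors' deposited DESeq table gives cat-1 a fold of 0.364 with an adjusted p of 0.675.

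Markers of spore formation were measured in the same libraries. All 5 of con-6, con-8, con-10, eas and fl were called higher at 4 h on Avicel than on sucrose, where 34.3% of tested genes were, and without carbon than on sucrose, where 39.6% were. None was called between Avicel and no carbon. Their summed level was 19741 to 40546 FPKM on Avicel at 4 h, 81124 to 212440 FPKM without carbon at 4 h and 90.6 to 449.6 FPKM on sucrose at 4 h, where 4 single values were listed at 0. Most of the sum at 4 h came from eas, a spore coat hydrophobin gene, with 17326 to 34620 FPKM on Avicel, 65514 to 206272 FPKM without carbon and 62.5 to 388.1 FPKM on sucrose. At 1 h the sum was 311.8 to 1003 FPKM on Avicel, 1963 FPKM without carbon and 34.9 to 251.8 FPKM on sucrose. There 3 of the 5 were called higher on Avicel, where 37.3% of tested genes were: con-6 by 2.98 (adjusted p = 0.0143), con-8 by 5.29 (adjusted p = 3.74e-05) and con-10 by 4.88 (adjusted p = 0.00247). The changes of eas (0.21, adjusted p = 0.913) and fl (0.08, adjusted p = 0.888) did not pass at 1 h, and cat-1 was not higher on Avicel then (log2 change -0.36). The part of conidiating cells in the cat-1 and cat-2 results was not tested.

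At 1 h the picture differed between the genes. The test called 2 of the 5, 1 higher and 1 lower, against 62% of all tested genes, 37.3% higher and 24.6% lower. The cat-3 transcript was at 37.3, 48.3 and 46.4 FPKM on Avicel at 1 h, against 1289, 1782 and 1740 FPKM on sucrose. The groups were far apart, and the log2 change was -5.15 (SE 0.38, adjusted p = 1.4e-07). The cat-2 transcript was at 246.9, 515.2 and 491.0 FPKM on Avicel at 1 h, against 46.3, 92.3 and 93.6 FPKM on sucrose, again without overlap (log2 change 2.41, SE 0.43, adjusted p = 0.000254).

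For cat-1 the groups overlapped at 1 h, with 26.7, 94.4 and 89.8 FPKM on Avicel, against 38.2, 102.3 and 124.1 FPKM on sucrose. In both media replicate 1, with 36-base reads, was the low library, and the log2 change was -0.36 (adjusted p = 0.666). The sod-1 levels were 7618, 10270 and 6959 FPKM on Avicel at 1 h, against 7392, 9778 and 7009 FPKM on sucrose, with a log2 change of 0.03 (adjusted p = 0.928). The sod-2 levels were 462.1, 418.9 and 378.5 FPKM on Avicel at 1 h, against 330.1, 347.1 and 334.5 FPKM on sucrose. These groups did not overlap, but the log2 change of 0.31 did not pass (adjusted p = 0.128). As shares of the recovered reads, every Avicel library was above every sucrose library for both dismutase genes. The sod-1 reads were 11006 of 15.9 M, 55489 of 59.8 M and 49044 of 53.3 M on Avicel. On sucrose they were 8378 of 15.5 M, 38603 of 59.8 M and 20978 of 42.3 M. The sod-2 reads in the same libraries were 1257, 4643 and 4264 on Avicel, against 762, 3161 and 2164 on sucrose. The lack of a call at 1 h thus depends on the deposited scaling.

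Without carbon at 1 h, a single library assumed to vary like the triplicates, the same 2 genes were called against sucrose, with a background of 58.9%. There cat-3 was at 54.8 FPKM (log2 change -4.83, adjusted p = 7.32e-06) and cat-2 at 327.4 FPKM (log2 change 2.14, adjusted p = 0.00807). The cat-1 level was 300.3 FPKM, above all sucrose libraries of 1 h, and sod-1 was at 14104 FPKM, the highest level of any of the 5 genes in any library, but neither passed (log2 change 1.92, adjusted p = 0.101 for cat-1, and 0.82, adjusted p = 0.0797 for sod-1). Without sucrose 4 h replicate 3, a library outside this comparison that adds to the shared spread, the same cat-1 change was called (adjusted p = 0.0496). Between Avicel and no carbon at 1 h none of the 5 was called, with a background of 0.788%.

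The difference between the Avicel responses at 4 h and at 1 h, each against sucrose of the same time, was tested directly. It was called for 4 of the 5 genes, against 31.1% of all tested genes. The difference was 3.98 for cat-1 (SE 0.96, adjusted p = 0.00734), 3.99 for cat-2 (SE 0.60, adjusted p = 0.000423), 3.48 for cat-3 (SE 0.54, adjusted p = 0.000488) and 0.99 for sod-2 (SE 0.24, adjusted p = 0.00763). For cat-3 it is a smaller deficit on Avicel at 4 h than at 1 h, and for cat-2 and sod-2 a larger excess. The change on sucrose between 1 h and 4 h is part of it, -1.87 for cat-2 and -1.54 for cat-3. For cat-1 it was -0.92 and for sod-2 -0.39, both not called. Between the replicate 1 libraries the sucrose change was only -0.16 for cat-2 and -0.03 for cat-3, and it was 1.14 for cat-1 and -0.16 for sod-2. For sod-1 the difference was -0.87 (adjusted p = 0.102), and with voom on recovered reads it was -1.19 and called (adjusted p = 0.0227).

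Over time on Avicel all 5 genes changed between 1 h and 4 h, where 37% of tested genes did. At 4 h against 1 h, cat-1 rose by 3.07 (adjusted p = 0.00346), cat-2 by 2.12 (adjusted p = 0.00184), cat-3 by 1.94 (adjusted p = 0.00157) and sod-2 by 0.60 (adjusted p = 0.0143), and sod-1 fell by 0.99 (adjusted p = 0.0118). The sod-2 call was lost without Avicel 4 h replicate 3 (0.54, adjusted p = 0.0566). The directions were the same between the replicate 1 libraries, with 40-base reads at 4 h and 36-base reads at 1 h, and between the 50-base libraries. The change was 3.32 and 2.94 for cat-1, 2.98 and 1.70 for cat-2, 2.43 and 1.70 for cat-3, -1.09 and -0.94 for sod-1, and 0.34 and 0.73 for sod-2.

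The 4 Avicel libraries with short reads form a time series of their own at 30 min, 1 h, 2 h and 4 h, with 1 library per time. In it cat-1 was at 29.8, 26.7, 281.0 and 275.7 FPKM, so its step lay between 1 h and 2 h. That 4 h library was the lowest of its triplicate, with the others at 761.1 and 669.3 FPKM. The lack of a cat-1 rise after 2 h therefore rests on this 1 library. The cat-2 transcript was at 253.0, 246.9, 387.2 and 1950 FPKM, with its largest step between 2 h and 4 h. The cat-3 transcript was at 28.0, 37.3, 64.8 and 205.6 FPKM and climbed at each step. The dismutase genes did not follow each other here. The sod-1 transcript was at 7426, 7618, 8557 and 3578 FPKM, level until 2 h and low at 4 h. The sod-2 transcript was at 428.7, 462.1, 763.0 and 584.7 FPKM, with its highest level of the whole series at 2 h. The times of 30 min and 2 h have no replicate, so these steps carry no test.

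**Figure D3:**
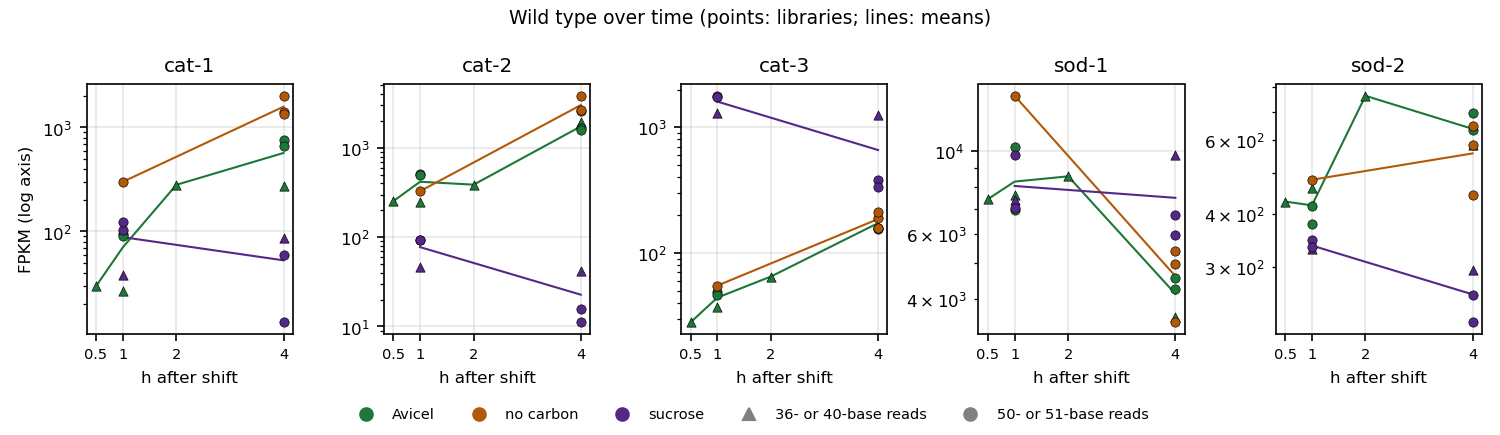
FPKM on a log axis against hours after the shift, for wild type on Avicel, without carbon and on sucrose; points are libraries, with triangles for 36- or 40-base reads, and lines join the means. Among the Avicel triangles cat-1 steps up between 1 h and 2 h and cat-2 between 2 h and 4 h. The line of cat-1 means on Avicel climbs on from 2 h to 4 h. The cat-3 level on sucrose stays above the other media.

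Without carbon, 3 of the 5 genes changed between 1 h and 4 h, where 21% of tested genes did. At 4 h against 1 h, cat-2 rose by 3.17 (adjusted p = 0.00282), cat-3 by 1.73 (adjusted p = 0.0358) and sod-1 fell by 1.64 (adjusted p = 0.00889). The cat-3 call was lost without no-carbon 4 h replicate 1 (1.72, adjusted p = 0.065) or replicate 3 (1.63, adjusted p = 0.0802). The cat-1 change of 2.37 did not pass (adjusted p = 0.0958). It was called in 4 of the 25 alternatives: without the short-read replicates (adjusted p = 0.00974, where 48.8% of all tested genes were called), with own groups only (0.0151), with voom (0.0358) and without sucrose 4 h replicate 3 (0.0495). The sod-2 change of 0.19 did not pass (adjusted p = 0.625).

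On sucrose, cat-2 and cat-3 were called lower at 4 h than at 1 h, by -1.87 (adjusted p = 0.0197) and -1.54 (adjusted p = 0.0285), where 7.61% of tested genes were called. These falls were seen in the 50-base libraries and not in replicate 1. Between the replicate 1 libraries, with 40-base reads at 4 h and 36-base reads at 1 h, the difference was -0.16 for cat-2 and -0.03 for cat-3. Between the 50-base libraries it was -2.72 for cat-2 and -2.29 for cat-3. Both calls were lost when replicate 2 or 3 of either time was left out: the cat-2 change was then -1.72 or -1.49 without 4 h replicate 2 or 3, and -1.71 or -1.70 without 1 h replicate 2 or 3. The cat-3 change was -1.28 or -1.19 without 4 h replicate 2 or 3, and -1.46 or -1.47 without 1 h replicate 2 or 3. For cat-1 the classes had opposite signs, 1.14 between the replicate 1 libraries and -1.95 between the 50-base libraries. Its change over all libraries was -0.92 (adjusted p = 0.453), and with the short-read replicates of all 4 triplicates left out it was called (adjusted p = 0.0186), where 34.6% of all tested genes were.

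The make-up of the catalase transcripts turned over with the medium. Of the summed FPKM of cat-1, cat-2 and cat-3, cat-2 made up 78.3 to 79.4% on Avicel at 1 h and 64.7 to 80.2% on Avicel at 4 h. Without carbon at 4 h, cat-2 made up 62.0 to 63.7% and cat-1 32.5 to 33.5%. On sucrose cat-3 made up 88.9 to 93.9% at 1 h and 83.6 to 93.2% at 4 h. In every one of these triplicate libraries cat-3 was the main catalase transcript on sucrose, and cat-2 on Avicel and without carbon.

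The sum itself was 2414 to 2597 FPKM on Avicel at 4 h, 4127 to 6057 FPKM without carbon at 4 h and 361.8 to 1387 FPKM on sucrose at 4 h. At 1 h it was 311.0 to 658.0 FPKM on Avicel, 682.5 FPKM in the 1 library without carbon and 1374 to 1976 FPKM on sucrose, so sucrose was then highest. Per unit of length, sod-1 outweighed sod-2 by 6.12 to 6.70 times on Avicel at 4 h, 7.79 to 8.52 times without carbon at 4 h and 23.1 to 33.1 times on sucrose at 4 h. These ratios did not overlap between Avicel and sucrose at 4 h. At 1 h they did, with 16.5 to 24.5 on Avicel and 21.0 to 28.2 on sucrose.

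**Figure D4:**
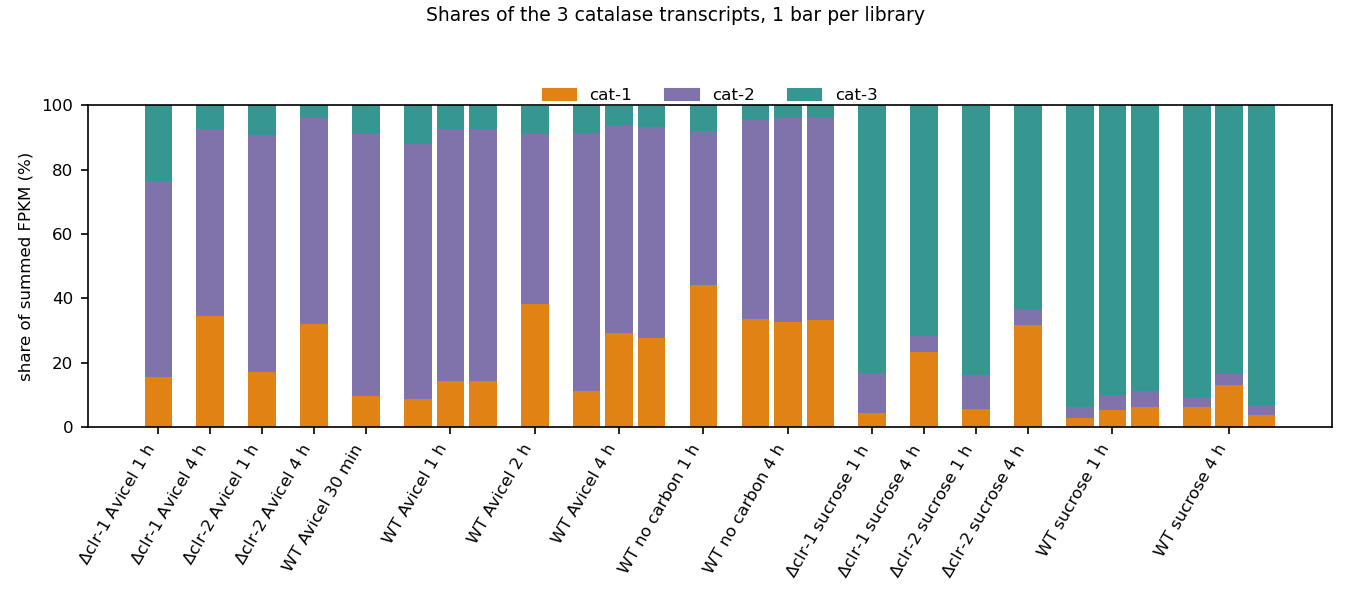
Share of the summed catalase FPKM (%) held by cat-1, cat-2 and cat-3, with 1 stacked bar per library, by group. The cat-3 share is 83.6% or more of every wild-type sucrose bar and 12.0% or less of every wild-type bar on Avicel or without carbon.

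The 5 groups with 3 libraries were ordered by level and neighbours were compared. For cat-1 the order was no carbon 4 h (1586 ± 374.1 FPKM, SD, n = 3), Avicel 4 h (568.7 ± 257.9), sucrose 1 h (88.2 ± 44.6), Avicel 1 h (70.3 ± 37.8) and sucrose 4 h (52.8 ± 36.6). The last 3 overlapped with their neighbours. For cat-2 it was no carbon 4 h (3014 ± 704.8 FPKM), Avicel 4 h (1739 ± 188.2), Avicel 1 h (417.7 ± 148.4), sucrose 1 h (77.4 ± 27.0) and sucrose 4 h (22.7 ± 16.3), and no neighbours overlapped.

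For cat-3 the order was sucrose 1 h (1604 ± 273.1 FPKM), sucrose 4 h (659.7 ± 520.6), no carbon 4 h (185.9 ± 28.2), Avicel 4 h (172.7 ± 28.6) and Avicel 1 h (44.0 ± 5.88). Only no carbon 4 h and Avicel 4 h overlapped as neighbours. For sod-1 it was Avicel 1 h (8283 ± 1752 FPKM), sucrose 1 h (8060 ± 1500), sucrose 4 h (7488 ± 2016), no carbon 4 h (4607 ± 1018) and Avicel 4 h (4126 ± 500.3), with a gap between sucrose 4 h and no carbon 4 h and overlap elsewhere. For sod-2 it was Avicel 4 h (637.1 ± 54.6 FPKM), no carbon 4 h (557.4 ± 103.3), Avicel 1 h (419.9 ± 41.8), sucrose 1 h (337.2 ± 8.85) and sucrose 4 h (258.4 ± 36.8), and the first 3 overlapped with their neighbours.

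None of the 5 genes was called in any of the 11 comparisons that involve a deletion strain. With 1 deletion library beside 3 wild-type libraries, a value outside the wild-type range is common by rank alone. Such positions are given below as description only, and their share over all genes was not counted. At 4 h on Avicel the clr-1 deletion and the clr-2 deletion were set against wild type, where 1.26% and 1.01% of tested genes were called. The cat-1 level was 1316 FPKM in the clr-1 deletion and 1282 FPKM in the clr-2 deletion, against 275.7 to 761.1 FPKM in wild type. Both deletion libraries were above all wild-type libraries, but the log2 changes of 1.34 (95% interval -0.72 to 3.40) and 1.30 (-0.76 to 3.36) did not pass (adjusted p = 0.983 and 1). The cat-2 level was 2216 FPKM in the clr-1 deletion and 2549 FPKM in the clr-2 deletion, against 1587 to 1950 FPKM in wild type, with log2 changes of 0.35 (-0.94 to 1.65) and 0.56 (-0.74 to 1.85).

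On Avicel at 4 h, sod-2 was at 449.9 FPKM in the clr-1 deletion and 482.8 FPKM in the clr-2 deletion, against 584.7 to 693.7 FPKM in wild type. Both deletion values lay under the wild-type range, and the log2 changes were -0.50 (95% interval -1.02 to 0.02) and -0.40 (-0.91 to 0.12). The sod-1 level was 3729 FPKM in the clr-1 deletion and 3966 FPKM in the clr-2 deletion, both inside the wild-type range of 3578 to 4559 FPKM. The cat-3 level was 284.6 FPKM in the clr-1 deletion and 159.9 FPKM in the clr-2 deletion, against 154.4 to 205.6 FPKM in wild type.

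At 1 h on Avicel, cat-3 was at 154.7 FPKM in the clr-1 deletion and 62.8 FPKM in the clr-2 deletion, against 37.3 to 48.3 FPKM in wild type. The clr-1 change was 1.80 (95% interval 0.64 to 2.96, adjusted p = 0.967), where 0.0116% of tested genes were called. Without Avicel 1 h replicate 1 alone it was 1.69 and not called (adjusted p = 1). With the short-read replicates of all 4 triplicates left out, it was the same 1.69 and was called (adjusted p = 0.00568), where 0.429% of all tested genes were. At 4 h the cat-3 change in the clr-1 deletion was 0.86 without Avicel 4 h replicate 1 alone, not called (adjusted p = 1), and called without all the short-read replicates (adjusted p = 0.0336), where 4.44% of tested genes were. For the clr-2 deletion at 1 h the change was 0.51 (-0.65 to 1.67), where 0.0579% were called. The other 4 genes had log2 changes between -0.03 and 0.93 at 1 h in both strains.

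On sucrose at 4 h, cat-1 was at 175.3 FPKM in the clr-1 deletion and 209.8 FPKM in the clr-2 deletion, against 13.4 to 85.7 FPKM in wild type. Both deletion libraries were above all wild-type libraries, with log2 changes of 2.06 (95% interval 0.00 to 4.13, adjusted p = 0.569) and 2.32 (0.26 to 4.38, adjusted p = 0.661), where 0.0695% and 0.0811% of tested genes were called. The cat-2 level was 36.9 FPKM in the clr-1 deletion and 33.6 FPKM in the clr-2 deletion, inside the wild-type range of 11.1 to 41.3 FPKM, whose top is the 40-base library. Without sucrose 4 h replicate 3, the lowest wild-type library, the cat-1 change was 1.29 in the clr-1 deletion (adjusted p = 0.949) and 1.54 in the clr-2 deletion (adjusted p = 1). Without sucrose 4 h replicate 1 alone, which leaves the 50-base libraries of wild type, the cat-1 change was 2.58 in the clr-1 deletion (adjusted p = 0.199) and 2.84 in the clr-2 deletion (adjusted p = 0.234). The cat-2 change was then 1.41 in the clr-1 deletion (adjusted p = 0.166) and 1.28 in the clr-2 deletion (adjusted p = 0.312), so none of these was called. With the short-read replicates of all 4 triplicates left out, which also narrows the shared spread, the same changes were called, with adjusted p values of 0.0214 and 0.0206 for cat-1 and 0.00542 and 0.013 for cat-2 in the clr-1 and clr-2 deletions. In that setting 18.5% of all tested genes were called for the clr-1 deletion and 12.5% for the clr-2 deletion.

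On sucrose at 1 h, cat-2 was at 194.4 FPKM in the clr-1 deletion and 155.6 FPKM in the clr-2 deletion, against 46.3 to 93.6 FPKM in wild type. Both lay above all wild-type libraries, with log2 changes of 1.39 (95% interval 0.09 to 2.68) and 1.07 (-0.23 to 2.36), and neither passed (adjusted p = 1 for each, background 0.0464% and 0.0695%). At this time cat-3 was at 1283 FPKM in the clr-1 deletion and 1212 FPKM in the clr-2 deletion, just under the wild-type range of 1289 to 1782 FPKM. As a share of the recovered reads the clr-1 deletion was inside that range. It had 20829 cat-3 reads of 58.6 M, against 5267 of 15.5 M in wild-type replicate 1. The sod-2 level at 1 h on sucrose was 308.2 FPKM in the clr-1 deletion and 304.3 FPKM in the clr-2 deletion, also below the wild-type libraries of 330.1 to 347.1 FPKM, with log2 changes of -0.13 (95% interval -0.65 to 0.39) and -0.15 (-0.67 to 0.37). At 4 h on sucrose, cat-3 was at 537.7 FPKM in the clr-1 deletion and 419.0 FPKM in the clr-2 deletion, inside the wild-type range of 337.2 to 1260 FPKM. The sod-1 levels on sucrose at 4 h, 7809 FPKM in the clr-1 deletion and 6595 FPKM in the clr-2 deletion, were also inside that of wild type, and those of sod-2, 321.2 and 312.8 FPKM, were above the wild-type libraries of 221.9 to 295.5 FPKM, with log2 changes of 0.32 (95% interval -0.20 to 0.84) and 0.28 (-0.23 to 0.80).

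The change of the Avicel response at 4 h in the deletion strains against that of wild type was not called for any of the 5 genes, where 0.475% of tested genes were called for clr-1 and 0.452% for clr-2. The widest intervals were those of cat-1, at -0.73 (95% interval -3.64 to 2.19) in the clr-1 deletion and -1.02 (-3.94 to 1.90) in the clr-2 deletion, so that changes of several fold in either direction would not have been detected. Between the deletion strains at 4 h on Avicel, where 0.0579% were called, the largest difference was that of cat-3, 0.83 for clr-1 over clr-2 (95% interval -0.59 to 2.25). The summed conidiation genes in these libraries were at 17382 FPKM in the clr-1 deletion and 24704 FPKM in the clr-2 deletion, against 19741 to 40546 FPKM in wild type.

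**Figure D5:**
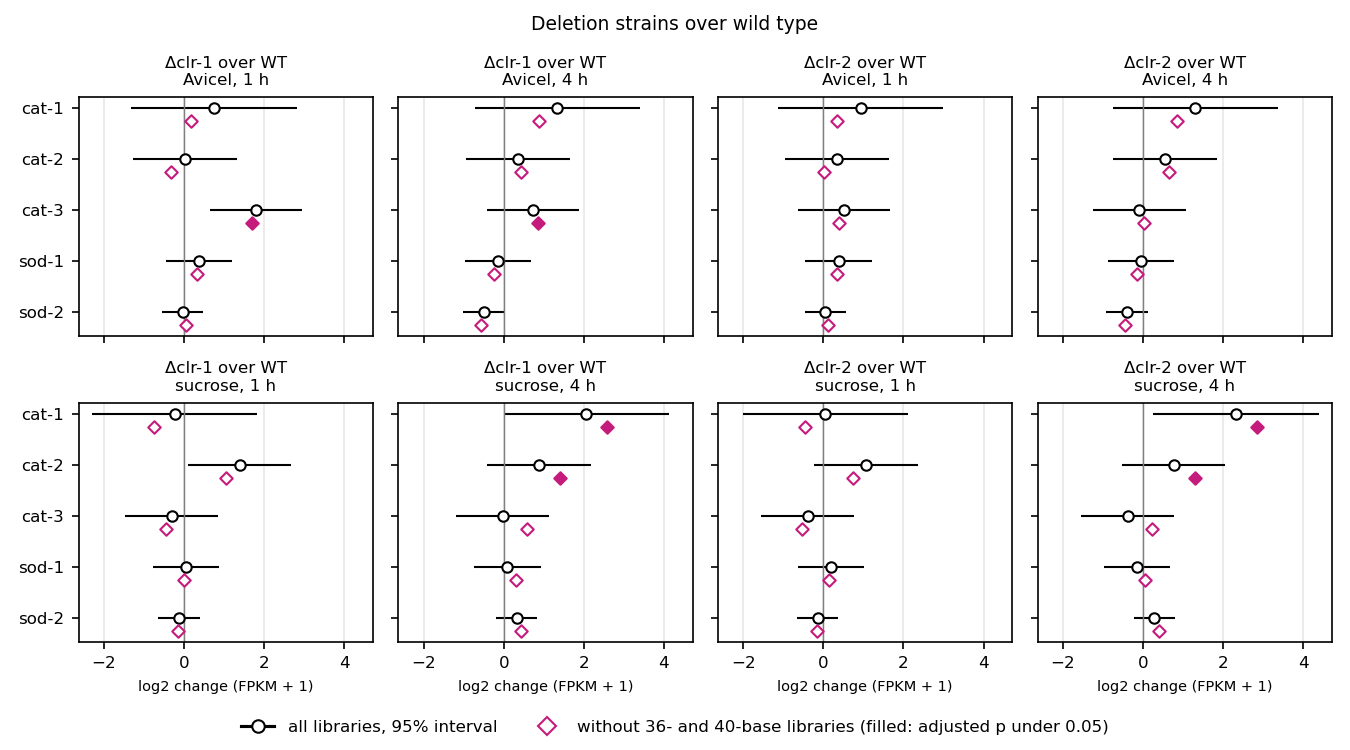
Log2 change of FPKM + 1 (horizontal axis) of each deletion strain over wild type for the 5 genes, by medium and time; circles with 95% limma intervals use all libraries, and diamonds leave out all wild-type replicates with 36- or 40-base reads, also from the shared spread. None of the circles has an adjusted p under 0.05; filled diamonds, which do, are cat-3 in the clr-1 deletion on Avicel and cat-1 and cat-2 in both strains on sucrose at 4 h.

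Other genes of oxidant handling, from a list of 17 loci, could be named where the reference table gives the same symbol, which held for 8. The loci left out were measured too. They were listed as superoxide dismutases, peroxiredoxins, glutathione peroxidase, glutathione reductase, cytochrome c peroxidase and regulators. Counts over the 8 therefore leave out most of the listed antioxidant enzymes. The 8 are the catalase gene cat-4, the thioredoxin reductase gene cys-9, the NADPH oxidase genes nox-1 and nox-2 with their regulator nor-1, the stress kinase gene os-2 and the response regulator genes rrg-1 and rrg-2. In wild type at 4 h, 0 of 8 were higher and 1 was lower on Avicel than on sucrose, while 34.3% of all tested genes were higher and 24.2% lower, and the median log2 change was 0.18 over these 8 and 0.24 over all tested genes. The one lower gene was cys-9, at 114.0 to 150.9 FPKM on Avicel and 815.2 to 1078 FPKM on sucrose (log2 change -2.80, adjusted p = 9.08e-08). Without carbon, cys-9 was again the 1 gene of 8 called against sucrose, with a log2 change of -2.93 (adjusted p = 6.75e-08), where 63.2% of all tested genes were called. Between Avicel and no carbon 0 of 8 were called, against 5.39% of all tested genes.

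At 1 h on Avicel against sucrose, 0 of these 8 were higher and 2 were lower, while 37.3% of all tested genes were higher and 24.6% lower. The cat-4 transcript was at 11.9 to 27.3 FPKM on Avicel and 57.9 to 72.8 FPKM on sucrose (log2 change -1.68, adjusted p = 0.000431), which puts cat-4 beside cat-3 among the catalase genes that were lower at this time. At 4 h cat-4 was at 38.9 to 72.2 FPKM on Avicel and 35.5 to 41.9 FPKM on sucrose, and its change of 0.55 did not pass (adjusted p = 0.151). The difference of its Avicel response at 4 h from that at 1 h was 2.22 (adjusted p = 0.00259).

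The genes whose log2 group means most resembled each member over the 16 groups were found by Pearson's r, as a description with no test, since the groups share media and many genes move with these. For cat-2 they were NCU05018, con-10 and NCU03805, each with r = 0.965, and con-10 is a conidiation gene. For cat-1 they were NCU01112 (r = 0.969), NCU05378 (0.959) and NCU07273 (0.948). For cat-3 they were cot-2 (r = 0.979), NCU08009 (0.976) and NCU07712 (0.973). For sod-1 they were pdx-3 (r = 0.946), NCU08275 (0.945) and NCU02007 (0.940), and for sod-2 NCU01364 (r = 0.935), gh3-4 (0.935) and NCU11636 (0.933). Among the 5 genes themselves, r over the 16 groups was 0.75 for cat-2 with sod-2, 0.71 for cat-1 with cat-2, -0.64 for cat-3 with sod-2 and -0.65 for cat-1 with sod-1.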

How the data were processed

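RNA from 26 cultures in 16 groups was sequenced, with 3 libraries in 5 groups and 1 in 11. FPKM per transcript were deposited by the authors, computed with Cufflinks 0.9.3 after TopHat, per the submitters' processing notes, which also name HTSeq, edgeR and DESeq; the genome build is not given in the sources used here. The deposited files also hold a coverage signal, from which the number of reads was recovered: coverage times effective length over read length was whole for 87.5 to 93.0% of transcripts under 200 reads (tolerance 0.02). Read lengths were inferred from the same steps. From the authors' DESeq tables the fold ratio and its adjusted p-values were taken. The edgeR tables of the authors list log2 fold changes, whose sign was turned to Avicel over the other medium. The names of the DESeq tables' mean columns appear swapped, and these means were not used. Of the authors' cluster table, whose weight is a score, the gene IDs alone served here. Symbols came from the RefSeq table, which also gave the older locus tag under which the files list con-8. All sample columns were used (0 unused).

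The 9907 transcripts were summed to 9733 genes. Values of log2(FPKM + 1) of the 8629 genes that averaged 1 FPKM or more were fitted with limma 3.58.1 (R 4.3.3), using a mean for each group and a trend. The residual degrees of freedom were 10 and the prior added 3.35. Adjusted p is Benjamini-Hochberg over all tested genes of a comparison, of which there were 21. The spread comes from wild-type triplicates, and a single library is assumed to vary like them. A log2(FPKM + 1) change understates that of low genes. The 5 genes and the other lists were chosen with earlier results of these data known. All 5 genes passed the filter. The genes named are the members, those of the 2 other lists with a matching symbol, and the 3 most similar genes of each member. Over the libraries the lowest numbers of recovered reads behind a value were 119 for cat-2, 125 for cat-1, 146 for cat-3, 534 for sod-2 and 3200 for sod-1. Same-numbered Avicel and sucrose libraries deviated together (correlations of 0.12 to 0.18 at 4 h and 0.18 to 0.28 at 1 h, all 3 pairs over 0.1), and replicate 1 also shares its short reads. There were 25 alternatives, among them pseudocounts of 0.1 and 10, no filter, a filter of 10 FPKM and rescaling to the median of gene ratios. Others were a replicate block, own groups only, no trend and voom on recovered reads. Each replicate, or all replicates with 36- or 40-base reads, was also left out. Voom kept the library sizes implied by the FPKM, so no alternative scaled to the recovered reads.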

Additional observations from a re-analysis of the deposited data

Results flagged for a closer look

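The response to Avicel against sucrose differed between 4 h and 1 h for 4 of the 5 genes, by a test of that difference in limma. The difference of log2 changes was 3.98 for cat-1 (adjusted p = 0.00734), 3.99 for cat-2 (adjusted p = 0.000423), 3.48 for cat-3 (adjusted p = 0.000488) and 0.99 for sod-2 (adjusted p = 0.00763). It includes the change on sucrose between 1 h and 4 h, -1.87 for cat-2 and -1.54 for cat-3, and -0.92 for cat-1 and -0.39 for sod-2, which were not called.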

How the results depend on the processing

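In the main fit, 28 of 105 member changes were called. Over the 25 alternatives, none of which scaled to the recovered reads, these gave 700 values. Of those, 674 stayed called, 26 were no longer called and 0 changed sign. The 77 changes not called gave 1920 values, of which 16 became called and 36 changed sign. The number of members called stayed within 1.5 times in all but these cases. Without the 36- and 40-base replicates it was 1 for Avicel against no carbon at 4 h, and against wild type it was 1 for the clr-1 deletion at either time on Avicel, 2 for it on sucrose at 4 h and 2 for the clr-2 deletion on sucrose at 4 h, where all libraries gave 0. For sucrose at 4 h against 1 h it was 0 with own groups only, 1 with voom, and 0 to 2 when leaving out 1 replicate. With own groups only the sod-2 change on Avicel at 4 h against 1 h (adjusted p = 0.0503) and the cat-2 change without carbon against sucrose at 1 h (adjusted p = 0.059) were not called. The replicate block, whose numbers pair Avicel with sucrose, ended 1 call, that of sod-1 without carbon against sucrose (adjusted p = 0.0568), between groups that do not pair, and left 4 members called there. The cause of these shifts was not tested.

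Sign changes, all among changes not called, were as follows. Without the 36- and 40-base replicates the change was -0.32 for cat-2 and 0.038 for sod-2 in the clr-1 deletion on Avicel at 1 h, 0.58 for cat-3 in the clr-1 deletion on sucrose at 4 h, and in the clr-2 deletion 0.034 for cat-3 on Avicel at 4 h, 0.22 for cat-3 and 0.058 for sod-1 on sucrose at 4 h, and -0.46 for cat-1 on sucrose at 1 h. The Avicel response of that strain minus that of wild type was then -0.19 for cat-3 and -0.21 for sod-1, and 0.028 for cat-2 with a pseudocount of 10. Voom gave -0.10 for cat-1 in the clr-2 deletion on sucrose at 1 h and -0.001 for sod-1 in the clr-1 deletion on sucrose at 4 h, where rescaling gave -0.003. Rescaling also gave -0.11 for sod-1 on Avicel against sucrose at 1 h. It moved the median of all genes to 0.20 there, against 0.34 as deposited, to 0.26 against 0.44 for no carbon against sucrose at 1 h, to 0.12 against 0 for the difference of Avicel responses, and to 0.09 against -0.03 for Avicel at 4 h against 1 h.

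Leaving out 1 replicate gave ranges across 0 in wild type for cat-1 (-0.87 to 0.22) and sod-1 (-0.13 to 0.18) on Avicel against sucrose at 1 h and for sod-1 on sucrose at 4 h against 1 h (-0.33 to 0.025). In the clr-1 deletion they were -0.32 to 0.21 for cat-2 and -0.11 to 0.038 for sod-2 on Avicel at 1 h, -0.37 to 0.58 for cat-3 and -0.055 to 0.30 for sod-1 on sucrose at 4 h, -0.75 to 0.088 for cat-1 and -0.036 to 0.21 for sod-1 on sucrose at 1 h, and -1.25 to 0.051 for cat-1 in the Avicel response. In the clr-2 deletion they were -0.17 to 0.034 for cat-3 and -0.15 to 0.026 for sod-1 on Avicel at 4 h, -0.022 to 0.12 for sod-2 on Avicel at 1 h, -0.73 to 0.22 for cat-3 and -0.30 to 0.058 for sod-1 on sucrose at 4 h, and -0.46 to 0.38 for cat-1 on sucrose at 1 h. Its Avicel response gave -0.73 to 0.17 for cat-2, -0.32 to 0.63 for cat-3 and -0.11 to 0.25 for sod-1. Own groups only gave no value between the deletion strains, which have 1 library each. Depth limits none of the 5 genes, with at least 119 recovered reads behind each value.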
